A study of Mus musculus with 22 samples.

Results

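The genes described here are 33 symbols listed for astrocytes and glial progenitor cells, followed on arrays of mouse hypothalamus. Each gene was read from the probe set annotated to its symbol, or from the one with the highest mean over all arrays where it had several. Of the 33 listed genes, 31 were measured, among 18820 genes of the series. Ntsr2b had no probe set under that name, and Slc7a10, an amino acid transporter gene, lay only on 2 probe sets shared with another gene, so neither was used. Ppap2b was measured under its current symbol, Plpp3. By role, 18 measured genes were homeostatic (6 transporters, 5 metabolic genes and 7 genes of membrane, junctions and the water channel), 2 encoded lecticans of the extracellular matrix, 6 belonged to glial progenitors and 5 mark reactive astrocytes.

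Each of the 22 arrays held the hypothalamus of 1 male C57BL/6 mouse. Lewis lung carcinoma, a transplantable mouse tumour, had been injected into hind-leg muscle under general anaesthesia at 6 weeks of age, and the tissue was collected 10, 14 or 17 days later from 5, 7 and 6 mice. The control group was 4 mice killed on day 14, and the labels do not say whether they were injected with anything. All mice were housed singly with free access to food and were killed under ketamine and xylazine. All 3 tumour groups were set against the same 4 controls, and days 10 and 17 had no control of their own day, so that tumour and sampling day cannot be told apart there.

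Astrocytes clear glutamate, GABA and potassium from around synapses, recycle glutamate into glutamine, and line blood vessels with endfeet rich in the water channel AQP4. When the brain is injured or inflamed they can become reactive, a state classically marked by the intermediate filaments GFAP and vimentin. In the adult hypothalamus, part of the glial progenitor genes are also used by mature astrocytes and by tanycytes, the radial-glia-like cells of the ventricle wall.

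Values are log2 array signals, and differences are tumour minus control on that scale with the standard error (SE) of the limma fit. Changes were called where the p adjusted over all 18820 genes (Benjamini-Hochberg) was below 0.05. Background was set at 3.94, the 95th percentile of probe sets for olfactory and vomeronasal receptors. All 31 genes had a mean above it, and 30 of them lay above it on all 22 arrays, Nes on 18. Marker lists of other cells and of neighbouring tissue moved too. For the thalamus, the region above the hypothalamus, the group means of all 15 markers were lower in tumour-bearing mice than in controls on each day, with 0 called. At an unadjusted p below 0.05, 9, 3 and 7 of the 15 passed on tumour days 10, 14 and 17, beside 10.7%, 10.5% and 16.6% of all genes. For the mean of the tumour days, 12 of the 15 passed, beside 14.8% of all genes. On each day the most negative difference of all genes was that of a thalamus marker (-0.91, -0.75 and -0.83). The mean of the 15 markers ranged from 6.37 to 6.87 on tumour day 10, 6.41 to 7.29 on tumour day 14 and 6.38 to 7.02 on tumour day 17, against 6.51 to 7.68 in controls, so that the groups overlapped.

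Few astrocyte genes passed the test, and those that fell came from several roles. On tumour day 17, 4 of 31 genes fell and 0 rose: Fabp7, Ncan, Acsl6 and Atp1b2. That is 12.9% of the genes, beside 1.12% of all genes called on that day, with 0.685% lower and 0.436% higher. At an unadjusted p below 0.05, 15 of the 31 passed on that day (6 higher and 9 lower), beside 16.6% of all genes. On tumour day 14, only Tgm2 was called, and it rose, beside 0.218% of all genes called and 0.197% called higher. At the unadjusted level, 9 of the 31 passed on tumour day 14 (2 higher and 7 lower), beside 10.5% of all genes. On tumour day 10, 0 of 31 genes were called by limma, and 7 had an unadjusted p below 0.05 (3 higher and 4 lower), beside 0.106% of all genes called and 10.7% at an unadjusted p below 0.05 (5.27% higher and 5.43% lower). For the mean of the 3 tumour days against control, Tgm2 rose and Ncan, Fabp7 and Acsl6 fell, beside 0.643% of all genes called, with 0.351% higher and 0.292% lower. In that comparison the calls of Acsl6 and Fabp7 were near the threshold (limma adjusted p = 0.0397 and 0.0369) and were lost with 1 array left out in 12 and 7 of 22 cases, those of Ncan and Tgm2 in 3 each. In bulk tissue, fewer cells of a type and less RNA per cell cannot be told apart.

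**Figure D1:**
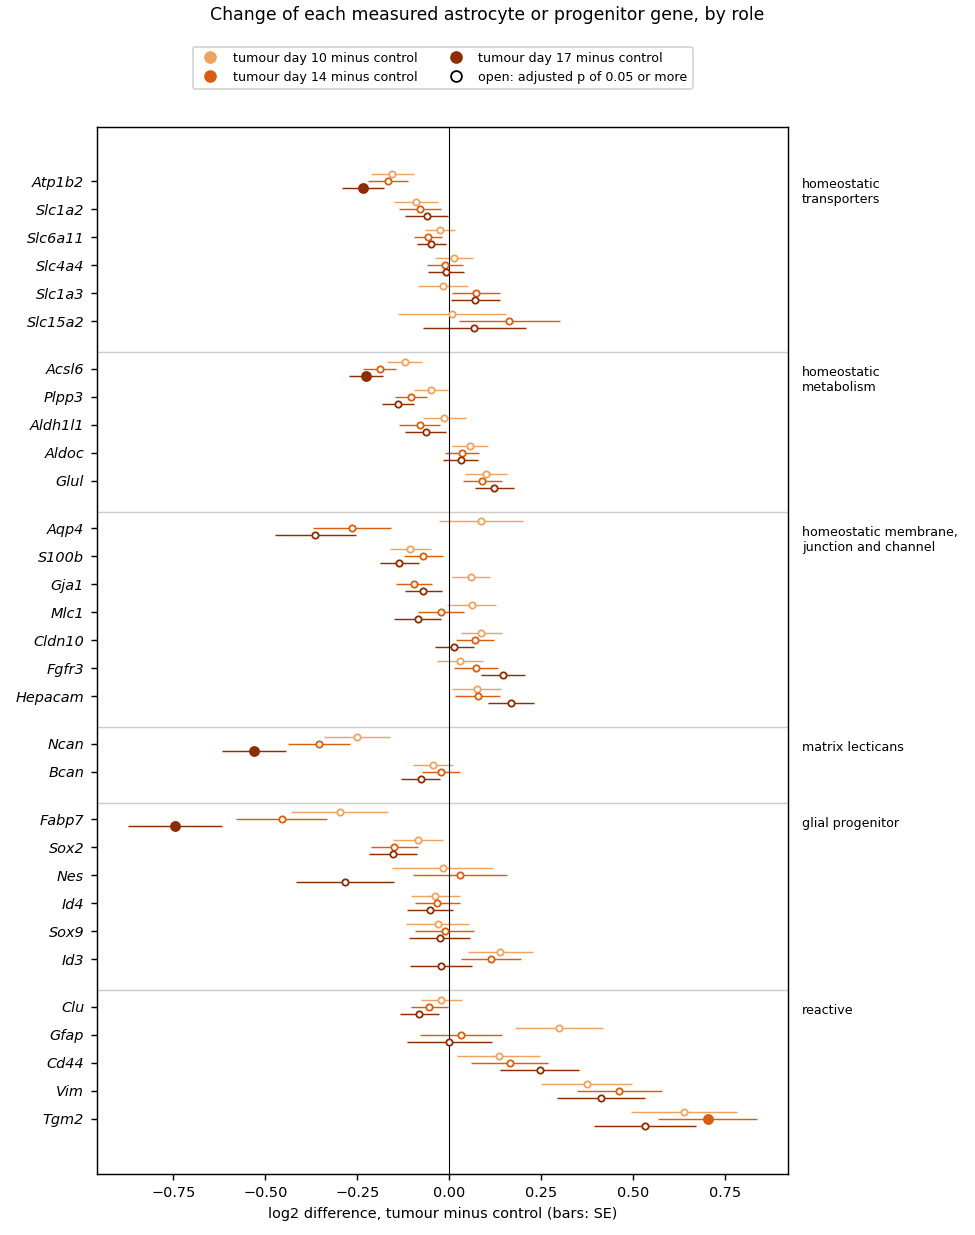
Log2 difference between tumour-bearing and control mice (horizontal axis, bars show the SE of the fit) for the 31 measured genes, ordered by role, on tumour days 10, 14 and 17. Filled points passed the adjusted threshold: Fabp7, Ncan, Acsl6 and Atp1b2 to the left on day 17, and Tgm2 to the right on day 14.

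The regulatory sequence next to 3 genes is shown because these genes carry the contrast described below: Fabp7 and Ncan had the most negative day 17 differences of the 31 genes, while Gfap, the classical reactive marker, was not called on any day. Each line gives the 250 bases upstream of the annotated start, 5′ to 3′ on the gene's strand, from RefSeq on build GRCm38.p6. Capitals mark matches to the motifs searched, which were AGGTCA in Fabp7 and Gfap (here on the opposite strand, as TGACCT) and TATAAA in Ncan (also on the opposite strand, as TTTATA).
Fabp7, chr10:57784673-57784922, plus strand: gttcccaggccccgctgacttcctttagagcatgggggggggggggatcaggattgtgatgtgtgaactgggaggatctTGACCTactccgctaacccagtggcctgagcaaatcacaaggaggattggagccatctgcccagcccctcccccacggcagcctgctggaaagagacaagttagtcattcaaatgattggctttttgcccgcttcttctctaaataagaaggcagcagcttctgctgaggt
Ncan, chr8:70120845-70121094, minus strand: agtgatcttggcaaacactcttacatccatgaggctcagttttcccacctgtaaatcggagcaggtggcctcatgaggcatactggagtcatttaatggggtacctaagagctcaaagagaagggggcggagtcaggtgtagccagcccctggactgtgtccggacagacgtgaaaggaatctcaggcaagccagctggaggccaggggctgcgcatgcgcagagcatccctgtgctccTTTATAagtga
Gfap, chr11:102897201-102897450, minus strand: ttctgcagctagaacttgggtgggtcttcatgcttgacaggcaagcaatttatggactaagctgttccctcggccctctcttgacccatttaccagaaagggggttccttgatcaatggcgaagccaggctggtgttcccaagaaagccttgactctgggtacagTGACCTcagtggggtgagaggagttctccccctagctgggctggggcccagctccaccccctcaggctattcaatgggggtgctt

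Both strands of such windows were searched in 26 of the 31 genes, and in all 32851 windows of the table. A gene counted if any of its windows matched, while the shares below count every window by itself. The counts of genes and the shares of windows are therefore not directly comparable. AGGTCA, a half-site of nuclear receptors, was found in 8 of the 26 genes (Acsl6, Aldh1l1, Fabp7, Gfap, Glul, Slc4a4, Slc6a11 and Sox2) and in 14.0% of all windows. TATAAA was found in Ncan, Slc1a3 and Vim, and in 12.4% of all windows. TTCNNNGAA, the pattern bound by STAT factors, was found in Aldoc and Slc1a3 and in 7.02% of all windows. ACAAAG, a SOX pattern, was found in Acsl6, Cldn10 and Sox2 and in 16.5% of all windows. The palindromes of nuclear factor I (TTGGC and GCCAA with 5 bases between) and of the glucocorticoid receptor (GNACA and TGTNC with 3 bases between) were found in 0 of the 26 genes, and in 0.0365% and 0.387% of all windows. A match describes the letters of the window and says nothing of binding.

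Among the 6 glial progenitor genes, Fabp7 fell on tumour day 17 and the other 5 were not called. Fabp7 (probe set 10363224) encodes the brain fatty acid-binding protein of radial glia and astrocytes. Its array values were 10.71, 10.86, 10.82, 10.65 and 10.89 on tumour day 10, 10.24 at the lowest, 10.68 at the median and 11.06 at the highest on tumour day 14, 10.14, 10.27 and 10.78 likewise on tumour day 17, and 11.03, 11.16, 11.10 and 11.04 in controls. All day 10 and day 17 mice lay below all controls, and on day 14 the highest mouse reached the range of the controls. Group means were 10.79 ± 0.10 on tumour day 10, 10.63 ± 0.28 on tumour day 14 and 10.34 ± 0.24 on tumour day 17, against 11.08 ± 0.06 in controls (SD, n = 5, 7, 6 and 4). The differences from control were -0.30 ± 0.13, -0.46 ± 0.12 and -0.75 ± 0.13 on days 10, 14 and 17 (limma adjusted p = 0.429, 0.137 and 0.0047), and the day 17 value is a fold of 0.596. The fall on day 17 stayed between 0.71 and 0.83 in size with any 1 of the 22 arrays left out, with a highest adjusted p of 0.0289.

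The remaining progenitor genes are transcription regulators and an intermediate filament. Sox2, a factor of neural stem cells that astrocytes keep, differed by -0.09 ± 0.07, -0.15 ± 0.06 and -0.15 ± 0.06 on tumour days 10, 14 and 17 (limma adjusted p = 0.243 on day 17). Nes, the filament nestin of progenitors, tanycytes and vessels, was near background: 3 of the 6 day 17 mice and 1 of the 5 day 10 mice lay below it, against 0 of the 4 controls, and its measured day 17 difference was -0.28 ± 0.13 (limma adjusted p = 0.283). Sox9, a factor of glial identity, differed by -0.03 ± 0.08 on tumour day 17, and Id4, an inhibitor of differentiation, by -0.05 ± 0.06. Id3, of the same family, lay above all controls in all 5 day 10 mice (0.14 ± 0.09, limma adjusted p = 0.59) and differed by -0.02 ± 0.08 on tumour day 17. All 6 progenitor genes, Nes with its values below background included, had a negative day 17 difference, with a median of -0.10, against -0.011 over all genes.

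Of the lecticans, chondroitin sulphate proteoglycans that bind hyaluronan in the brain matrix, Ncan fell and Bcan was not called. Ncan (probe set 10579165), which encodes neurocan, had array values of 8.44, 8.42, 8.56, 8.18 and 8.33 on tumour day 10, 8.11, 8.24 and 8.58 (lowest, median and highest) on tumour day 14, 7.94, 8.09 and 8.36 likewise on tumour day 17, and 8.60, 8.59, 8.72 and 8.65 in controls. All 18 tumour-bearing mice lay below all 4 controls. The differences were -0.25 ± 0.09, -0.36 ± 0.08 and -0.53 ± 0.09 on days 10, 14 and 17 (limma adjusted p = 0.326, 0.0874 and 0.00372), and the day 17 value is a fold of 0.693. With any 1 array left out, the day 17 fall stayed between 0.50 and 0.58 in size, with a highest adjusted p of 0.0268. Bcan, which encodes brevican, differed by -0.08 ± 0.05 on tumour day 17, with a 95% interval of -0.19 to 0.03.

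A possible batch was checked for these falls, the first 9 and the last 13 samples by accession, which the labels do not describe and which differed in the spread of array values (2.25 to 2.28 and 2.29 to 2.33, SD over probe sets). Within the last 13, which hold 3 of the controls, Fabp7 differed by -0.74 and Ncan by -0.55 on tumour day 17 (limma adjusted p = 0.131 and 0.171). Within the first 9, which hold 1 control, the differences were -0.72 and -0.49 (limma adjusted p = 0.381 and 0.435). With a term for the run of accessions in the fit of all arrays, both falls passed (limma adjusted p = 0.00503 for each).

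The 18 homeostatic genes had small median differences, and 2 of them fell on tumour day 17, beside 0.685% of all genes called lower. Their median difference was 0.0096 on tumour day 10, -0.041 on tumour day 14 and -0.055 on tumour day 17, while the median over all genes was 0.0006, -0.0046 and -0.011. On these days 8, 11 and 11 of the 18 were lower, beside 49.7%, 52.0% and 53.7% of all genes. At an unadjusted p below 0.05, 2, 4 and 8 of the 18 passed, beside 10.7%, 10.5% and 16.6% of all genes. The 8 on tumour day 17 moved both ways, 3 higher and 5 lower. The mean of the 18 genes ranged from 9.47 to 9.54 on tumour day 10, 9.41 to 9.52 on tumour day 14 and 9.40 to 9.48 on tumour day 17, against 9.47 to 9.52 in controls.

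**Figure D2:**
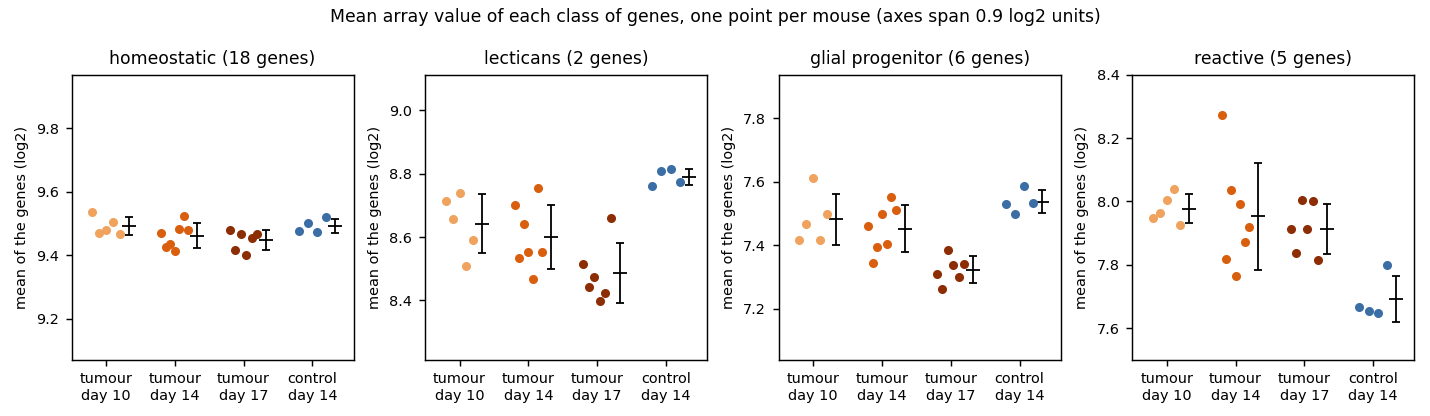
Mean log2 array value of the genes of each class (vertical axis), 1 point per mouse, with the mean and SD of each group beside it. Every panel has an axis of the same length. The homeostatic mean ran from 9.40 to 9.48 on tumour day 17 and from 9.47 to 9.52 in controls, and the reactive mean of every tumour-bearing mouse but 1 lay above all 4 controls.

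Transporters for glutamate, GABA and bicarbonate were not called. Slc1a2 and Slc1a3, the glial glutamate transporters GLT-1 and GLAST, differed by -0.06 ± 0.06 and 0.07 ± 0.07 on tumour day 17, with 95% intervals of -0.18 to 0.06 and -0.07 to 0.21. Slc6a11, a GABA transporter, differed by -0.05 ± 0.04, and Slc4a4, the sodium bicarbonate cotransporter, by -0.01 ± 0.05. Slc15a2, a peptide transporter, was less precise at 0.07 ± 0.14. The exception was Atp1b2 (probe set 10387505), the beta subunit of the sodium pump in astrocytes, also known as the adhesion molecule AMOG. Its array values were 10.76, 10.74, 10.72, 10.60 and 10.74 on tumour day 10, 10.62, 10.68 and 10.82 (lowest, median and highest) on tumour day 14, 10.52, 10.61 and 10.81 likewise on tumour day 17, and 10.84, 10.86, 10.87 and 10.90 in controls. All 18 tumour-bearing mice lay below all 4 controls. The difference was -0.16 ± 0.06 and -0.17 ± 0.06 on days 10 and 14, and Atp1b2 fell by 0.24 ± 0.06 on tumour day 17 (limma adjusted p = 0.0435), a fold of 0.849. This call was near the threshold: with 1 array left out it was lost in 14 of 22 cases, in which the adjusted p was at most 0.125 and the difference stayed between -0.25 and -0.21. The arrays concerned were all 4 controls, day 17 mice 2, 3, 4 and 5, day 14 mice 4, 5 and 7, and day 10 mice 2, 3 and 5. It was also lost after a further quantile normalization, when the fit held only day 17 and control mice, and with the meningeal or the endothelial markers as a covariate (limma adjusted p = 0.108, 0.128, 0.0576 and 0.0719).

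Of the 5 metabolic genes, Acsl6 fell. Acsl6 (probe set 10376096) encodes an acyl-CoA synthetase that activates long polyunsaturated fatty acids. Its array values were 8.83, 8.64, 8.78, 8.73 and 8.78 on tumour day 10, 8.62, 8.68 and 8.81 (lowest, median and highest) on tumour day 14, 8.59, 8.65 and 8.72 likewise on tumour day 17, and 8.93, 8.89, 8.87 and 8.82 in controls. Day 14 and day 17 mice lay below all controls, and 1 day 10 mouse lay within their range. The differences were -0.12 ± 0.05 and -0.19 ± 0.05 on days 10 and 14, and Acsl6 fell by 0.23 ± 0.05 on tumour day 17 (limma adjusted p = 0.022), a fold of 0.855. Leaving out control mouse 1, 2 or 3 or day 17 mouse 4 raised the adjusted p to 0.103, 0.0738, 0.0692 and 0.0557, with differences of -0.21, -0.22, -0.23 and -0.21. When the fit held only day 17 and control mice, the adjusted p was 0.075.

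The other metabolic genes were not called. Glul, glutamine synthetase, differed by 0.12 ± 0.05 on tumour day 17 (limma adjusted p = 0.262), and a second probe set of the gene by 0.04 ± 0.05. Plpp3, a phosphatase that degrades lysophosphatidic acid, differed by -0.14 ± 0.04 (limma adjusted p = 0.117) and lay below all controls in all 6 day 17 mice. Aldoc and Aldh1l1, the astrocyte forms of aldolase and of a folate enzyme, differed by 0.03 ± 0.05 and -0.06 ± 0.06.

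None of the 7 genes of membrane, junctions and the water channel was called. S100b and Hepacam had the smallest unadjusted p of these for the mean of the tumour days. S100b, a calcium-binding protein, had array values of 8.04, 8.04, 7.86, 8.05 and 7.92 on tumour day 10, 7.98, 8.02 and 8.07 (lowest, median and highest) on tumour day 14, 7.87, 7.89 and 8.11 likewise on tumour day 17, and 8.06, 8.13, 8.06 and 8.11 in controls. Its day 17 difference was -0.14 ± 0.05 (limma adjusted p = 0.211), and only the day 10 mice lay wholly below the controls. Hepacam, an adhesion molecule that partners the protein of Mlc1, had values of 8.12, 8.23, 8.31, 8.30 and 8.13 on tumour day 10, 8.16, 8.20 and 8.29 (lowest, median and highest) on tumour day 14, 8.18, 8.28 and 8.48 likewise on tumour day 17, and 8.06, 8.24, 8.10 and 8.18 in controls. Its groups overlapped, and its day 17 difference was 0.17 ± 0.06 (limma adjusted p = 0.189). Fgfr3, a growth factor receptor, differed by 0.15 ± 0.06 on tumour day 17, Gja1, connexin 43, by -0.07 ± 0.05, Mlc1 by -0.09 ± 0.06, and the claudin gene Cldn10 by 0.01 ± 0.05.

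Aqp4, the endfoot water channel gene, was singled out after its values were seen. It had 9.28, 8.77, 8.74, 8.83 and 8.76 on tumour day 10, 8.33, 8.51 and 8.88 (lowest, median and highest) on tumour day 14, 8.26, 8.41 and 8.61 likewise on tumour day 17, and 8.80, 8.83, 8.83 and 8.70 in controls. Day 17 mice lay below all controls, and day 10 mouse 1 was above every other mouse. The differences of 0.09 ± 0.11, -0.27 ± 0.11 and -0.36 ± 0.11 on days 10, 14 and 17 were not called (limma adjusted p = 0.817, 0.37 and 0.102).

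**Figure D3:**
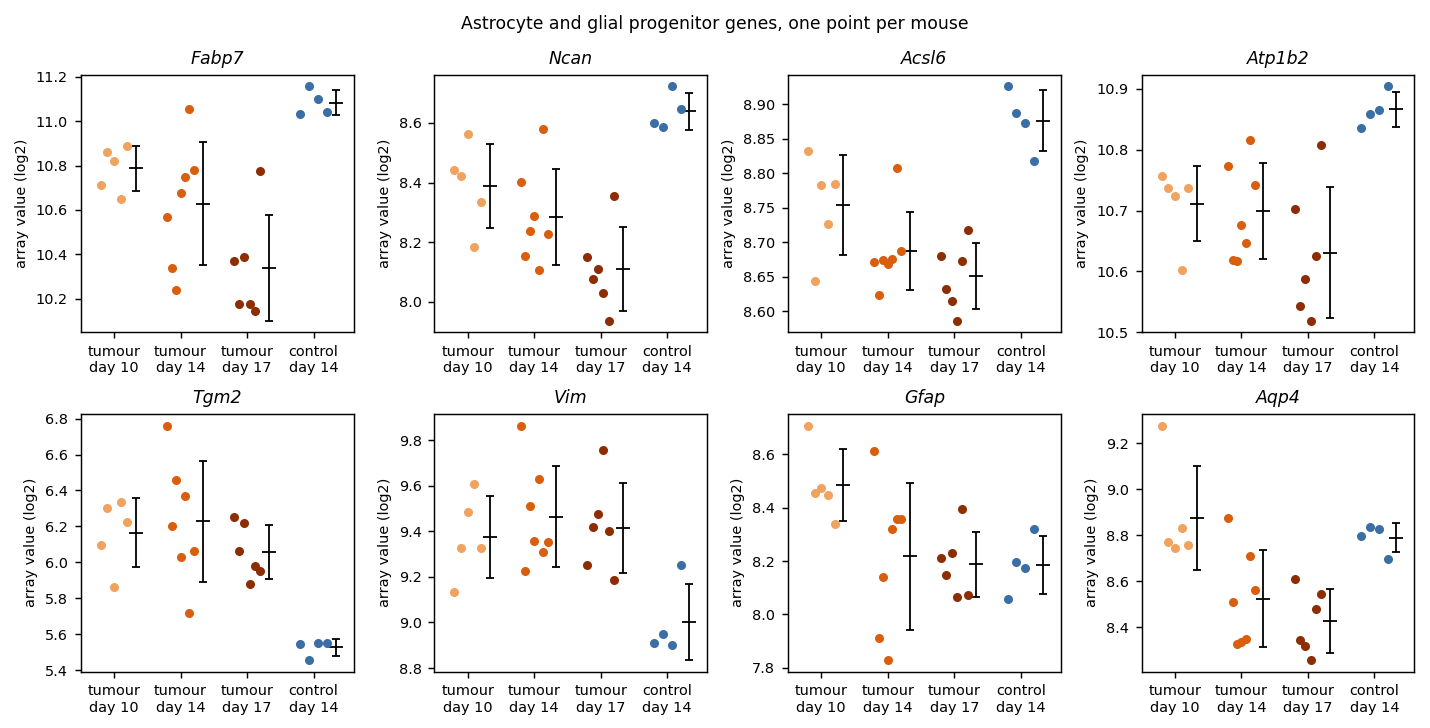
Log2 array values of 8 genes (vertical axis, a range of its own in each panel), 1 point per mouse, with the mean and SD of each group beside it. Ncan and Atp1b2 of all 18 tumour-bearing mice lay below all 4 controls and Tgm2 of all 18 lay above them, while Gfap on tumour day 17 overlapped the controls.

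The reactive genes were split. Tgm2, Vim and Cd44 were higher on average in tumour-bearing mice on each day, Gfap was higher on average on tumour day 10 and near the controls on tumour day 17, and Clu was slightly lower on average. The median difference of the 5 genes was 0.30, 0.16 and 0.25 on tumour days 10, 14 and 17. Their mean ranged from 7.93 to 8.04 on tumour day 10, 7.76 to 8.27 on tumour day 14 and 7.81 to 8.00 on tumour day 17, against 7.65 to 7.80 in controls.

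Tgm2 (probe set 10489204) encodes transglutaminase 2, an enzyme that crosslinks proteins and is made by astrocytes, endothelium and other cells. Its array values were 6.10, 6.30, 5.86, 6.34 and 6.23 on tumour day 10, 5.72, 6.20 and 6.76 (lowest, median and highest) on tumour day 14, 5.88, 6.02 and 6.25 likewise on tumour day 17, and 5.55, 5.46, 5.55 and 5.55 in controls. All 18 tumour-bearing mice lay above all 4 controls. The difference was 0.64 ± 0.14 on tumour day 10 (limma adjusted p = 0.106), Tgm2 rose by 0.70 ± 0.13 on tumour day 14 (limma adjusted p = 0.0195), a fold of 1.63, and the difference was 0.53 ± 0.14 on tumour day 17 (limma adjusted p = 0.0623). Without control mouse 1, 2 or 3 or day 14 mouse 5, the day 14 difference was 0.71, 0.68, 0.71 and 0.68, with adjusted p = 0.104, 0.102, 0.09 and 0.0555. The day 14 difference was 0.53 within the last 13 accessions and 0.93 within the first 9 (limma adjusted p = 0.408 and 0.407).

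Vim, the filament vimentin of astrocytes, tanycytes, vessels and meninges, had array values of 9.14, 9.33, 9.48, 9.61 and 9.33 on tumour day 10, 9.23, 9.36 and 9.86 (lowest, median and highest) on tumour day 14, 9.19, 9.41 and 9.76 likewise on tumour day 17, and 8.91, 8.95, 8.90 and 9.25 in controls. Control mouse 4 reached the lower tumour-bearing mice, and the other 3 controls lay below all of them. The differences were 0.37 ± 0.12, 0.46 ± 0.12 and 0.41 ± 0.12 (limma adjusted p = 0.296, 0.104 and 0.0918), and none passed the threshold. Cd44, a hyaluronan receptor, differed by 0.25 ± 0.11 on tumour day 17 (limma adjusted p = 0.262).

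Gfap had array values of 8.71, 8.46, 8.48, 8.45 and 8.34 on tumour day 10, 7.83, 8.32 and 8.61 (lowest, median and highest) on tumour day 14, 8.07, 8.18 and 8.39 likewise on tumour day 17, and 8.06, 8.20, 8.17 and 8.32 in controls. All 5 day 10 mice lay above all controls, and the groups of days 14 and 17 overlapped the controls. The differences were 0.30 ± 0.12 on tumour day 10 (limma adjusted p = 0.381), 0.03 ± 0.11 on tumour day 14 and 0.00 ± 0.11 on tumour day 17, with a 95% interval of -0.24 to 0.24 on day 17. Clu, the secreted chaperone clusterin, differed by -0.08 ± 0.05 on tumour day 17.

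The groups of several genes did not overlap with the controls. On tumour day 17, 6 of 31 genes lay below all controls (Atp1b2, Acsl6, Plpp3, Aqp4, Ncan and Fabp7) and 1 above (Tgm2), beside 3.3% and 1.66% of all genes. On tumour day 14, 3 lay below (Atp1b2, Acsl6 and Ncan) and 1 above (Tgm2), beside 1.06% and 0.776% of all genes. On tumour day 10, 4 lay below (Atp1b2, S100b, Ncan and Fabp7) and 3 above (Id3, Gfap and Tgm2), beside 2.24% and 2.21% of all genes. Over all 18 tumour-bearing mice, Ncan and Atp1b2 lay below all controls and Tgm2 above them, beside 0.207% and 0.159% of all genes.

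Between tumour days, 0 of 31 genes were called by limma in any pair of days, beside 0.00531% of all genes, and 0 had a called slope over days 10, 14 and 17, beside 0% of all genes. At an unadjusted p below 0.05, 8 of 31 slopes passed, all negative, beside 8.57% of all genes, or 5.47% with a negative slope. Of the 31 slopes, 22 were negative (71.0%, beside 56.5% of all genes). Some other marker lists were also mostly lower on day 17 than on day 10. These were 10 of 10 oligodendrocyte markers (4 at an unadjusted p below 0.05), 14 of 14 microglial (3) and 11 of 12 meningeal markers (0). Over all genes, 56.5% were lower in that comparison and 8.30% passed at that level. Not all lists fell: 7 of 10 endothelial, 12 of 15 hypothalamus, 4 of 9 tanycyte and 7 of 15 thalamus markers were higher on day 17. The part of other cells and tissue in the slopes was not tested. Fabp7 differed by -0.45 ± 0.12 and Ncan by -0.28 ± 0.08 for day 17 minus day 10 (limma adjusted p = 0.315 and 0.389). Aqp4 differed by -0.45 ± 0.10 and Gfap by -0.30 ± 0.11 for the same pair of days (limma adjusted p = 0.217 and 0.494).

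Mice of the same day differed among themselves in several of these genes at once. Among the day 14 mice, mouse 6 had the highest Fabp7 (11.06), Ncan (8.58), Acsl6 (8.81) and Atp1b2 (10.82), and the lowest Tgm2 (5.72). Among the day 17 mice, mouse 6 had the highest Fabp7 (10.78), Ncan (8.36), Acsl6 (8.72) and Atp1b2 (10.81), and the lowest Vim (9.19). Day 14 mouse 1 was the highest of its day in Tgm2 (6.76), Vim (9.86), Gfap (8.61) and Aqp4 (8.88). The numbers name mice within a group and do not link the days. Day 14 mouse 1 was also the highest of its day in the mean of the endothelial (7.32) and of the meningeal markers (7.04). Day 14 mouse 6 had the lowest endothelial mean of its day (6.94) and the median meningeal mean (6.30). Day 17 mouse 6 was the lowest of its day in both (6.97 and 5.68). The part of vessels and meninges in these differences between mice was not tested.

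Further astrocyte genes, listed from general knowledge, moved in both directions. Of 30 measured, 15 were higher and 15 lower on tumour day 17, while 53.7% of all genes were lower. Of the 30, 3 were called lower and 0 higher on that day, beside 0.685% and 0.436% of all genes. At an unadjusted p below 0.05, 14 of the 30 passed (46.7%, with 6 higher and 8 lower), beside 16.6% of all genes. Pla2g7, a phospholipase that inactivates platelet-activating factor, fell by 0.39 ± 0.07 (limma adjusted p = 0.0119). Its values were 9.71, 9.89 and 10.02 (lowest, median and highest) on tumour day 17, against 10.28, 10.29, 10.38 and 10.10 in controls. Gpr37l1, an orphan receptor of astrocytes, fell by 0.26 ± 0.06, and Kcnj10, the potassium channel Kir4.1 that buffers extracellular potassium, fell by 0.30 ± 0.07 (limma adjusted p = 0.0241 and 0.0315). Day 17 mice lay below all controls in each of these 3 genes, beside 3.3% of all genes. The 3 were named for their call in the same comparison, so this is no separate result. On tumour days 10 and 14, 0 of the 30 genes were called by limma, with 6 and 15 at an unadjusted p below 0.05 (20% and 50% of them, beside 10.7% and 10.5% of all genes).

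Genes known from reactive astrocytes, many of which other brain cells also make under inflammation, were called in the upward direction. Of 30 measured, 23 had a mean above background. Of the 30, 5 were called higher on tumour day 10, 3 on tumour day 14 and 2 on tumour day 17, and 0 were called lower on any day. Over all genes, 0.101% were called higher and 0.00531% lower on tumour day 10, 0.197% and 0.0213% on tumour day 14, and 0.436% and 0.685% on tumour day 17, so that calls on days 10 and 14 were mostly upward in the whole series. Lcn2, lipocalin 2, had values of 6.33, 6.91, 5.22, 7.05 and 6.41 on tumour day 10, 5.22, 6.47 and 7.32 (lowest, median and highest) on tumour day 14, 5.79, 5.80 and 6.36 likewise on tumour day 17, and 4.02, 3.53, 3.78 and 5.35 in controls, of which 2 were below background. It rose by 2.21 ± 0.39, 2.27 ± 0.37 and 1.81 ± 0.38 (limma adjusted p = 0.028, 0.00738 and 0.024). Osmr, the oncostatin M receptor, rose by 0.65 ± 0.13, 0.69 ± 0.12 and 0.56 ± 0.12. Ptgs2, the inducible cyclooxygenase, and Cxcl10, an interferon-induced chemokine, rose on tumour day 10 by 1.15 ± 0.20 and 0.93 ± 0.17, with 1 of the 4 controls below background in Cxcl10. Of the other calls, named after their values were seen, Fkbp5, a glucocorticoid-induced chaperone, rose by 0.64 ± 0.12 on tumour day 14. Psmb8, an immunoproteasome subunit, passed the test on tumour day 10 but lay below background on all 22 arrays, so no difference is given for it. Serpina3n, another reactive marker named after its values were seen, differed by 0.10 ± 0.11, 0.03 ± 0.10 and -0.06 ± 0.11.

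**Figure D4:**
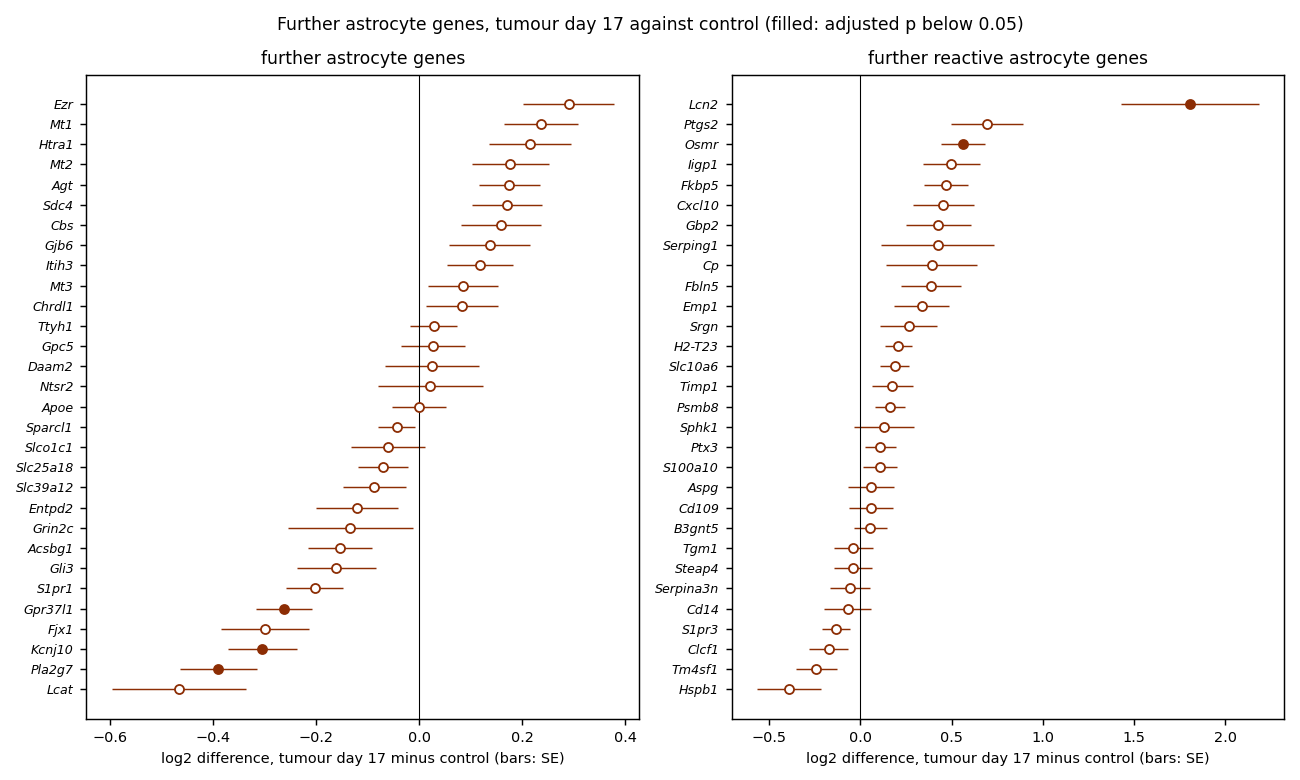
Log2 difference, tumour day 17 minus control (horizontal axes, bars show the SE of the fit), for 30 further astrocyte genes (left) and 30 further reactive genes (right). Filled points passed the adjusted threshold: Gpr37l1, Kcnj10 and Pla2g7 on the negative side at the left, and Lcn2 and Osmr on the positive side at the right.

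Genes related to Ncan, Fabp7 and Id3 in function were also measured. Of 11 genes of glial matrix and perineuronal nets, Hapln4, a link protein of these nets, fell by 0.25 ± 0.06 on tumour day 17 (limma adjusted p = 0.0315). On that day 1 of the 11 was called lower and 0 higher, beside 0.685% and 0.436% of all genes. In the same list the lectican gene Vcan, versican, rose by 0.20 ± 0.04 for the mean of the tumour days (limma adjusted p = 0.038), with values of 7.37 to 7.53 on tumour day 10, 7.32 to 7.56 on tumour day 14 and 7.37 to 7.49 on tumour day 17, against 7.17 to 7.31 in controls. The lecticans thus did not move one way. Ncan was lower and Vcan higher in all 18 tumour-bearing mice than in all controls, beside 0.207% and 0.159% of all genes. Of 14 regulators of the Notch, Id and nuclear factor I families, limma called 0, and Id1 had the smallest p (0.55 ± 0.12 on tumour day 10, adjusted p = 0.088). Of 7 other fatty acid-binding protein genes, 2 were above background and limma called 0. Of these, Fabp5 differed by -0.07 ± 0.05 and Fabp3 by -0.03 ± 0.06 on tumour day 17. Of 13 clock genes, measured because sampling days differed, limma called 0, and Per1 differed by 0.23 ± 0.07 on tumour day 17 (adjusted p = 0.109).

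Markers of other cells that use the same genes are given beside these results. On tumour day 17, 53.7% of all genes were lower, 0.685% were called lower and 0.436% called higher. At an unadjusted p below 0.05, 16.6% of all genes passed on that day. At that level 1 of 10 oligodendrocyte progenitor, 6 of 9 ependymal and 4 of 9 tanycyte markers passed. So did 5 of 12 neuronal, 1 of 10 oligodendrocyte and 2 of 14 microglial markers. Oligodendrocyte progenitors also make Ncan, Bcan, Fabp7 and Id4: 7 of their 10 markers were lower on tumour day 17 with 0 called, and the mean of the list ranged from 6.89 to 7.01 on tumour day 17, against 7.00 to 7.05 in controls. Ependymal markers were lower in 8 of 9, with Tmem212 called, and ranged from 5.32 to 5.64 on tumour day 17, against 5.57 to 5.78 in controls. Tanycyte markers were higher in 6 of 9 with 0 called, and ranged from 5.52 to 5.99 on tumour day 17, against 5.32 to 5.88 in controls. Neuronal markers were lower in 12 of 12, with Nefl called, and ranged from 9.88 to 10.02 on tumour day 17, against 10.00 to 10.10 in controls. Oligodendrocyte markers were lower in 8 of 10 with 0 called, and ranged from 8.61 to 8.95 on tumour day 17, against 8.62 to 9.02 in controls. Microglial markers were lower in 13 of 14, with Fcrls called, and ranged from 5.94 to 6.18 on tumour day 17, against 6.16 to 6.22 in controls. The part of these cells in the falls of Fabp7, Ncan, Acsl6 and Atp1b2 was not tested.

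Vessels, meninges and blood also express Vim, Tgm2 and Cd44. Over all genes, 49.7%, 52.0% and 53.7% were lower on tumour days 10, 14 and 17. Endothelial markers were higher in 6 of 10 on tumour day 14 and in 7 of 10 on tumour day 17, with 0 called. Their mean ranged from 6.94 to 7.32 on tumour day 14 and 6.97 to 7.24 on tumour day 17, against 6.92 to 7.11 in controls. On each of these days 5 of 10 had an unadjusted p below 0.05 (3 higher and 2 lower), beside 10.5% and 16.6% of all genes. Meningeal fibroblast markers were higher in 11, 10 and 10 of 12 on tumour days 10, 14 and 17 with 0 called, and ranged from 5.94 to 6.92, 5.64 to 7.04 and 5.68 to 6.72, against 5.85 to 6.32 in controls. Red cell markers ranged from 4.50 to 5.24 on tumour day 14 and 4.79 to 5.67 on tumour day 17, against 3.89 to 4.50 in controls. On each of these days 2 of 5 were called higher, beside 0.197% and 0.436% of all genes. Of 11 leukocyte markers, 3 were above background and 0 were called. With the endothelial or the meningeal mean as a covariate, settings chosen after the data were seen, Tgm2 rose by 0.64 and 0.62 on tumour day 14 (limma adjusted p = 0.00454 and 0.0236). A marker mean stands at best for the amount of a cell type, and cannot show a change of Tgm2 within those cells. The red cell mean was not used as a covariate. The part of vessels, meninges and blood in the rise of Tgm2 was not tested.

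The thalamus markers were lower on average in tumour-bearing mice on each day. They were highest in control mice 3 and 1, day 14 mouse 2 and day 17 mouse 1. With their mean as a covariate, Fabp7 fell by 0.79 and Ncan by 0.54 on tumour day 17 (limma adjusted p = 0.0162 for each), while Acsl6 (-0.23), Atp1b2 (-0.25) and, on tumour day 14, Tgm2 (0.75) did not pass. Without these 4 arrays, which leaves 2 controls, the differences were -0.77 for Fabp7, -0.52 for Ncan, -0.21 for Acsl6, -0.27 for Atp1b2 and 0.73 for Tgm2, and none passed (limma adjusted p from 0.201 to 0.798). The part of thalamus tissue in the comparisons was not tested.

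**Figure D5:**
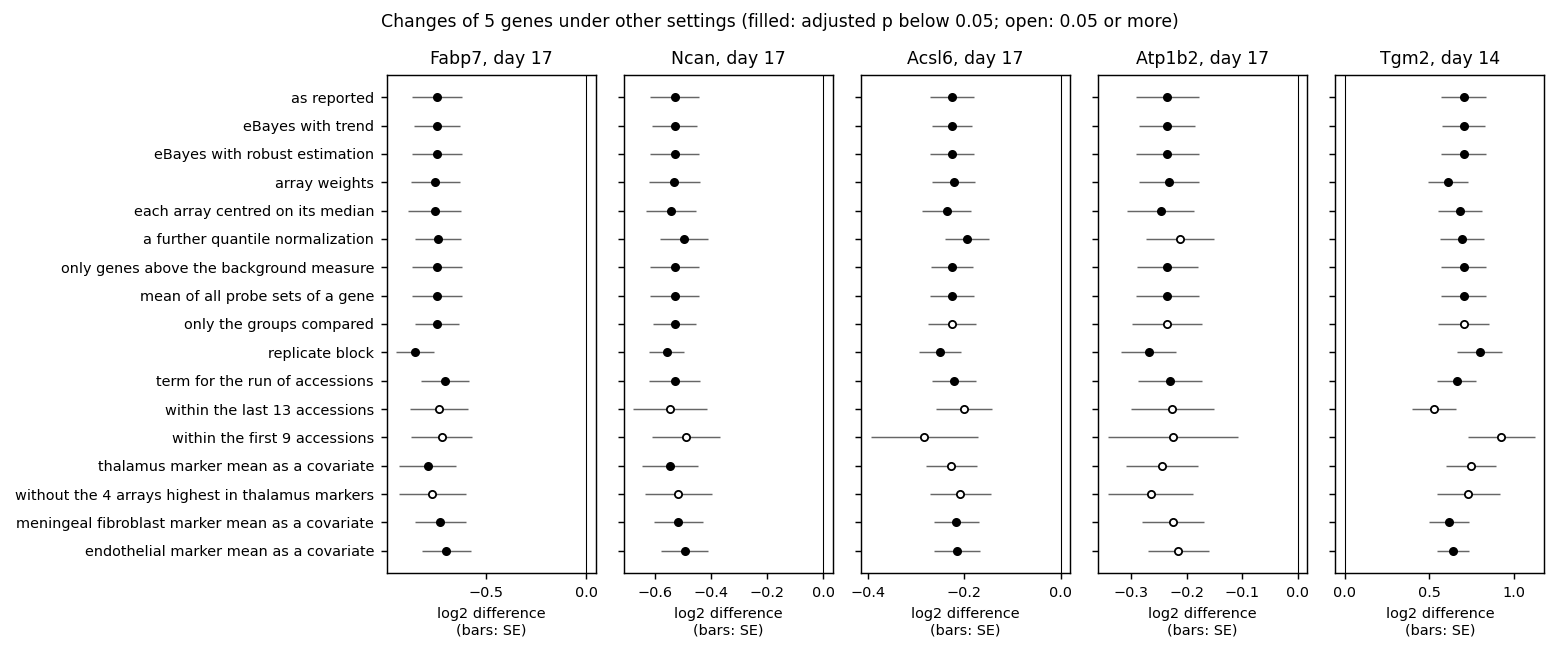
Log2 difference from control (horizontal axes, bars show the SE) of the 5 genes called on single days, on tumour day 17 for Fabp7, Ncan, Acsl6 and Atp1b2 and on tumour day 14 for Tgm2, as reported and under other settings (rows). Filled points passed the adjusted threshold. No setting turned a direction: Fabp7 stayed between -0.85 and -0.70 and Tgm2 between 0.53 and 0.93. Rows that alter only the variance estimate or the genes tested keep the same difference by design.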

How the data were processed

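Hypothalamic RNA of 22 mice was measured on 1 array each. The deposited files hold log2 signals. Per the submitters' processing notes, the authors used RMA, which corrects background, normalizes between arrays and summarizes probes. Its version, the genome build and annotation are not given in the sources used here. Of 35556 probe sets, the platform annotation paired 21218 with 1 gene, 1881 with several, and 12457 were unnamed here. This left 18820 genes, 1386 with several probe sets, each read from its probe set of highest mean. Medians of the arrays lay between 5.27 and 5.34, pairs of arrays correlated at 0.980 to 0.995, and 0 arrays were identical. No low-value filter was applied, and the background came from 1180 receptor probe sets.

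A model with a mean for each group was fitted to the 22 arrays (R 4.3.3, limma 3.58.1, functions lmFit, contrasts.fit and eBayes, two-sided, 18 residual degrees of freedom), and it was tested on simulated data. The number of arrays limits the precision, and each array is a separate mouse per the labels. The genes, their roles and the further lists were chosen with earlier results of these data known. Array values are given for genes called in any comparison, for the pair with the smallest unadjusted p in a role with none called, and always for Gfap, Vim and Fabp7. Further lists name up to 4 called genes by p, or otherwise the pair with the smallest p. Other settings concerned the moderation of variances, the weighting and scaling of arrays, a filter on low signals, the choice of probe set, of samples and of threshold, a replicate block, the run of accessions and marker means as covariates, and each array was also left out in turn. Promoter windows came from RefSeq (GRCm38.p6).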

Additional observations from a re-analysis of the deposited data

Results flagged for a closer look

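In each of 124 groups of 4 to 7 mice (31 genes in 4 groups), the mouse at either end was tested for a gap to the nearest other mouse that is large for the range of the group (Dixon's test at the 95% level). It marked 12 groups, and chance marks about 1 in 20. Among genes described above with a call, Atp1b2 was lowest in day 10 mouse 4 (10.60), Acsl6 was highest in day 14 mouse 6 (8.81), and Tgm2 was lowest in control mouse 2 (5.46), close to the other controls at 5.55.

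Among the other genes, day 10 mouse 1 stood apart 3 times, with the lowest Slc1a3 (10.15), the highest Aqp4 (9.28) and the highest Mlc1 (9.31) of its group. Fgfr3 was lowest in day 10 mouse 3 (8.42), and Id4 was highest in day 17 mouse 2 (8.21). In controls, mouse 1 had the lowest Slc1a2 (10.70) and the highest Aldh1l1 (7.31), and mouse 4 had the highest Slc1a3 (10.57) and the highest Vim (9.25).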

How the results depend on the processing

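None of 356 alternative values of the called differences turned its direction, and 257 stayed on the same side of the threshold. Part of these values could not turn. Settings that alter only the variance estimate, the threshold or the genes tested keep the difference itself. Leaving out an array of a group outside the comparison keeps it too. Of 858 alternative medians of the roles, 8 moved by more than the spread between mice. By this measure a median near 0 can change sign and still not count as moved. That of the homeostatic transporters on tumour day 10 (-0.022) ran from -0.067 to 0.0045 over 14 other settings. The number of the 31 genes called on tumour day 10 (0 as reported) was 1 (Tgm2) with array weights, with only the groups compared and with the endothelial covariate. The number on tumour day 14 (1) was 4 with a variance trend, 2 with array weights or the background filter, 3 at an adjusted p below 0.10, and 0 at 0.01, with only the groups compared, with the thalamus covariate, without the 4 arrays highest in thalamus markers, and within the first 9 or the last 13 accessions. The number on tumour day 17 (4) was 7 with array weights, 6 at an adjusted p below 0.10 (Tgm2 and Vim joined), 3 with only the groups compared (Fabp7, Ncan and Tgm2) or after a further quantile normalization (without Atp1b2), 2 (Fabp7 and Ncan) at 0.01 or with the thalamus covariate, and 0 without those 4 arrays and within either run. The number for the mean of the tumour days (4) was 3 after that normalization (without Acsl6, adjusted p = 0.0744), 2 (Ncan and Tgm2) with the meningeal or endothelial covariate, and 0 at 0.01, with the thalamus covariate, without those 4 arrays and within either run. Smaller groups leave fewer degrees of freedom in the last settings, and the cause of the others was not tested. The meningeal and endothelial covariates were chosen after seeing the data.

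Leaving out each array in turn gave 0 to 1 genes on tumour day 10 (1 without day 14 mouse 1 or 6), 0 to 4 on tumour day 14, 2 to 5 on tumour day 17 and 0 to 6 for the mean of the tumour days, and 0 between days and for the slope. On tumour day 14 it gave 0 without control mouse 1, 2 or 3 or day 14 mouse 5, 2 without control mouse 4 and 4 without day 14 mouse 6. On tumour day 17 it gave 2, Fabp7 and Ncan, without control mouse 1, 2 or 3 or day 17 mouse 4. For the mean it gave 0 without control mouse 1, 2 or 3, and 2 without day 10 mouse 4 or day 17 mouse 2 or 4. The call of Acsl6 for the mean was lost without control mouse 1, 2 or 3, day 10 mouse 2 or 4, day 14 mouse 3, 5 or 7 and day 17 mouse 2, 3, 4 or 5 (adjusted p from 0.0502 to 0.186), that of Fabp7 without any 1 control, day 10 mouse 4 and day 17 mouse 2 or 4 (0.0505 to 0.164), and those of Ncan and Tgm2 without control mouse 1, 2 or 3.

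The replicate numbers were not taken as pairing: residuals of the 28 same-numbered pairs of arrays correlated from -0.19 to 0.35, with 15 pairs over 0.1, and 5 of 21 arrays correlated best with their own number. The median correlation was 0.12 for same-numbered pairs and -0.010 for other pairs of different groups. For pairs within the same run it was 0.081, and across the runs -0.090. Whether the numbers mark pairs was not tested. With the replicate block, the counts were 4 on tumour day 14, 7 on tumour day 17, 3 between days and 3 for the slope (Aqp4, Fabp7 and Ncan), and Fabp7 fell by 0.85 on tumour day 17. Precision was limited by 4 controls: the SE of a homeostatic gene on tumour day 17 was 0.04 to 0.14.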
